A study of Homo sapiens with 21 samples.

Results

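The 77 genes described here encode the proteins of the cytosolic ribosome, the machine that translates nuclear-encoded mRNA. They were chosen by name from the 60671 genes of a gene-level RNA-seq table: protein-coding genes with a symbol RPL or RPS and a number, with or without a final A or X, together with RPLP0, RPLP1, RPLP2 and RPSA. Of the 77 members, 46 belong to the large subunit and 31 to the small subunit. All 77 passed the filter on low counts and were tested with 14012 genes in all, and the lowest count of any member in any library was 1508, for RPS26. The rule itself uses symbols and no measured value.

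Poly-A RNA was sequenced from 21 libraries, 3 in each of 7 groups. OCI-AML3 cells, an established human acute myeloid leukaemia line, were untreated at 0 h, given the vehicle DMSO for 4 h or 24 h, or given tunicamycin at 1 μg/mL for 4 h or 24 h. HEK293T, a human embryonic kidney line, received DMSO or the same dose of tunicamycin for 24 h, and the 4 h time point of that line was not analysed here. The study used the drug to ask how stress of the endoplasmic reticulum (ER) reshapes RNA and its splicing. The lines differ in origin, medium and growth in suspension or attached, and these cannot be told apart in any comparison between them.

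Tunicamycin blocks the first step of N-linked glycosylation, so that misfolded proteins accumulate in the ER and the unfolded protein response lowers translation and raises chaperones. A ribosome needs most of its proteins in equal numbers, and cells make them from some of the most abundant mRNAs they hold. Many of these mRNAs begin with a C followed by a run of pyrimidines, the 5′ terminal oligopyrimidine (TOP) motif, through which their translation, and in part their stability, follows nutrient and mTOR signalling with LARP1 as a binding protein. Ribosomal proteins made without a partner are degraded, and some act outside the ribosome: RPL5 and RPL11 bind MDM2 and raise p53 when ribosome assembly fails.

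The first bases of the transcripts are shown because the TOP motif is more common at starts of the family than at starts of all genes. Start sites came from the promoter sequences of RefSeq on GRCh38.p14, and each line gives 10 bases before the annotated start and 20 from it, on the strand of the gene, written 5′ to 3′. Capitals mark the run of C and T that opens at the start, printed where it begins with C and goes on for at least 5 bases. RPS26 and RPL35 fell and RPL10 rose against the rest of the family, RPL7A and RPS21 fell in OCI-AML3 cells at 24 h, RPLP0 rose in HEK293T cells, RPL41 was the highest member per coding base, and RPS4X was the member higher in HEK293T cells.
RPS26: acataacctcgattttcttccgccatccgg
RPL35: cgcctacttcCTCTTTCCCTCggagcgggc
RPL10: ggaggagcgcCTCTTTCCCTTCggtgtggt
RPL7A: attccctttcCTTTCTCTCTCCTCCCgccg
RPS21: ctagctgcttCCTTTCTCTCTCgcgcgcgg
RPLP0: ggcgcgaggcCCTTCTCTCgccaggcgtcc
RPL41: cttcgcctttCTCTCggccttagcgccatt
RPS4X: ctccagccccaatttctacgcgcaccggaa

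These windows lie at chr12:56041908-56041937 for RPS26, chr9:124861938-124861967 for RPL35, chrX:154398367-154398396 for RPL10, chr9:133348208-133348237 for RPL7A, chr20:62387093-62387122 for RPS21, chr12:120201092-120201121 for RPLP0, chr12:56116623-56116652 for RPL41 and chrX:72277229-72277258 for RPS4X. RPL35, RPLP0 and RPS4X are on the minus strand and the others on the plus strand. RefSeq starts were matched for 62 members, with 77 starts between them, and RPS2, RPL5 and RPL37 were among those without an entry. Of these starts, 46 (59.7%) opened with the motif, against 4.07% of 35116 starts of all genes. By gene, 74.2% of the matched members had such a start, against 5.14% of 27305 genes. The run was 5 to 19 bases long, with a median of 8. Starts of the mitochondrial ribosomal protein genes, which build a separate ribosome inside mitochondria, held it in 7.06%. The motif is not particular to the family: of 9 starts of other genes known for TOP mRNAs, 7 (77.8%) held it. RPL10 had 3 listed starts, of which the window shown is the 1 with the motif. RPS26 and RPS4X had no such run at the annotated start, and RPS26 had a run of pyrimidines a few bases downstream. Near the annotated start, 67 of the 77 member starts (87.0%) had a run of at least 8 pyrimidines, against 26.0% of all starts. A match is a description of these letters, and no match says only that the letters are not at this annotated start.

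Libraries held 13838500 to 19961800 counts, and 3 counts corresponded to 0.15 to 0.22 CPM, where CPM is a gene's count scaled to a common library size. All 7 OCI-AML3 markers (MPO, SPI1, CD33, PTPRC, CEBPA, HOXA9 and MEIS1) were above 1 CPM in OCI-AML3 cells, with a sum of 1107 to 1615 CPM, against 120 to 176 CPM in HEK293T cells, where 3 of the 7 were above 1 CPM and MPO and PTPRC at or under 3 counts. HOXA9, a homeobox gene, went against its list, at a log2 difference of 1.10 higher in HEK293T cells. All 5 HEK293T markers (CDH2, NEFM, NEFL, KRT8 and KRT18) were above 1 CPM in HEK293T cells, with a sum of 294 to 351 CPM, against 2.86 to 5.03 CPM in OCI-AML3 cells. Reads of the 1587 pseudogenes of the members made up 0.0840 to 0.214% of a library, and exceeded 5% of a member's own counts only for RPL29 (5.87%), RPL23A (7.87%) and RPS2 (22.7%). Whether counting used the strand is not given in the sources used here.

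The members together took a large part of each library, and libraries of OCI-AML3 cells stood apart in that share. In OCI-AML3 cells given DMSO for 4 h the members held 10.4%, 8.29% and 8.39% of the counts in replicates 1, 2 and 3. All 77 members lay above the mean of their group in replicate 1 and all 77 below it in replicate 2. In OCI-AML3 cells given tunicamycin for 24 h they held 10.9%, 12.8% and 9.32%, with all 77 above the group mean in replicate 2 and all 77 below it in replicate 3. Untreated replicate 3 and the 24 h DMSO replicate 1 also had all 77 below the mean of their group. The median member therefore spanned 0.41 log2 units between the DMSO libraries at 4 h and 0.59 between the tunicamycin libraries at 24 h, against 0.013 and 0.025 in the HEK293T groups. The family moved as a block between replicates: the median SD of a member within a group was 0.170 log2 units, and 0.0623 once each library was set to its own median member. Other short transcripts moved with it. The 2805 other protein-coding genes with a median transcript of up to 800 bases deviated from their group mean in the same direction as the members in 20 of 21 libraries (Pearson's r 0.94 over 21 libraries, which share their preparation and depth), although by less, from 11.7 to 12.3% of the counts at 4 h in DMSO. The part of the library preparation in these shifts was not tested, and in bulk RNA a changed mix of cells and a changed amount of RNA per cell cannot be told apart.

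**Figure D1:**
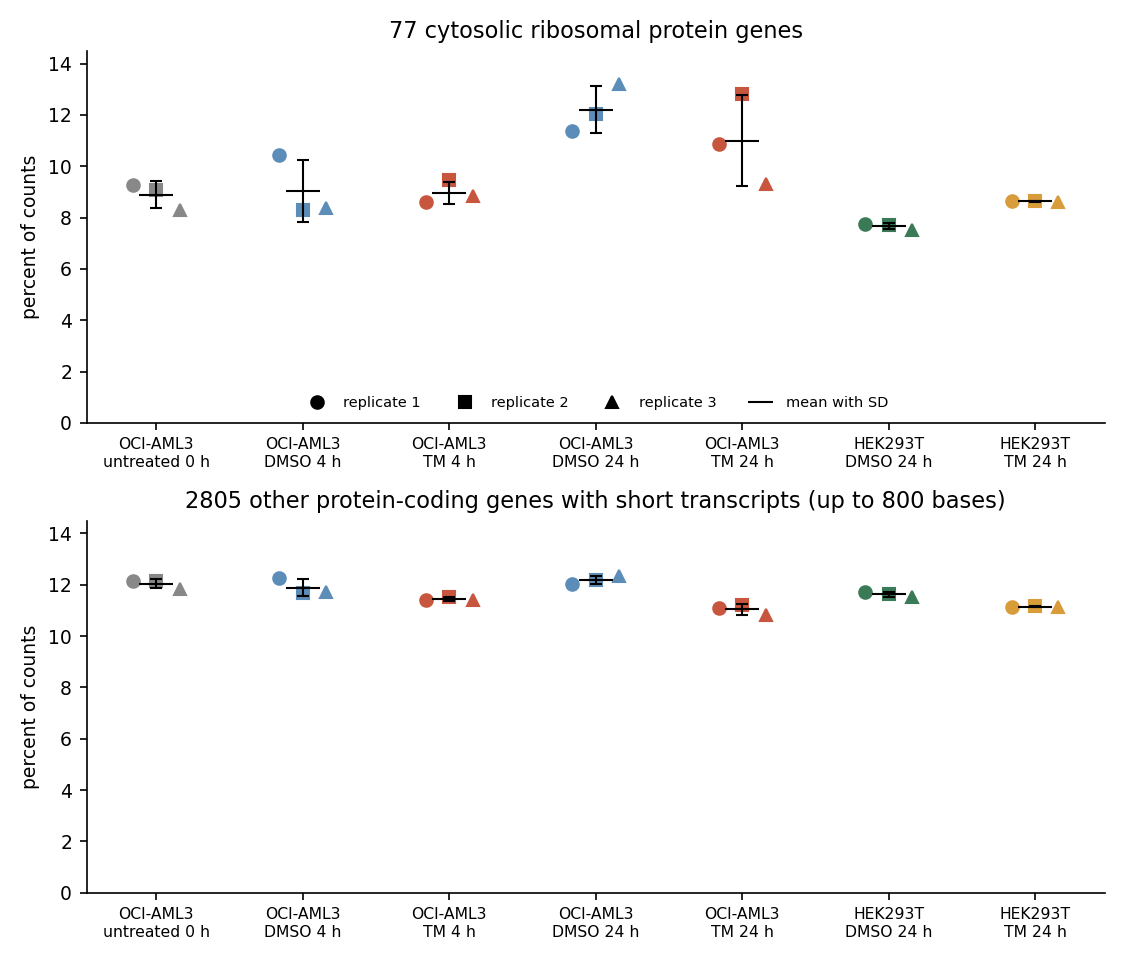
Percent of the counts of each library, on an axis that starts at 0, in the 77 members (top) and in other protein-coding genes with short transcripts (bottom); shapes mark replicates 1 to 3 and bars the mean with SD of 3 libraries. DMSO replicate 1 at 4 h and tunicamycin replicates 2 and 3 at 24 h stand apart in OCI-AML3 cells, while in HEK293T cells the 3 tunicamycin libraries (8.59 to 8.66%) all lie above the 3 DMSO libraries (7.53 to 7.74%).

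After 4 h of tunicamycin in OCI-AML3 cells, RPS26 and RPL7A were lower and the median of the family lay near its DMSO level. The median log2 fold change of the 77 members was −0.01, against −0.02 over all genes tested, and the interquartile range was 0.151 log2 units, against 0.472 over all genes. By edgeR's quasi-likelihood test, with Benjamini-Hochberg adjustment over all genes tested and an adjusted p of at most 0.05, 2 members (2.6%) were lower, against 18.9% of all genes, and none was higher, against 18.5%. Both shares are below the background. RPS26, a protein of the mRNA exit channel of the small subunit (chr12:56041351-56044697, plus strand, GENCODE 44 on GRCh38), was at 273, 212 and 220 CPM in DMSO and at 154, 152 and 143 CPM in tunicamycin. The groups did not overlap, and the untreated libraries, at 247, 242 and 227 CPM, lay with the DMSO libraries. Its log2 fold change was −0.65 ± 0.117 (SE; adjusted p = 0.000128), a level 36.2% lower. RPL7A, a large subunit protein of the L7Ae family, was at 2005, 1547 and 1596 CPM in DMSO and at 1353, 1488 and 1333 CPM in tunicamycin. It fell by 0.30 on the log2 scale (SE 0.105; adjusted p = 0.0269) without overlap, was called under 15 of 19 settings and was at −0.16 without DMSO replicate 1. RPL22 was the third member whose libraries did not overlap (3 members, 3.9%, against 23.4% of all genes), at a log2 fold change of −0.17 (adjusted p = 0.175).

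The share of the library in the members was 8.97% ± 0.428 (SD, n = 3) in tunicamycin and 9.04% ± 1.21 in DMSO at 4 h, a difference within the spread (exact permutation test, two-sided, p = 1.0; 3 against 3 cannot go below 0.1). Other protein-coding genes with short transcripts held 11.5% ± 0.0728 in tunicamycin and 11.9% ± 0.328 in DMSO. These groups did not overlap (p = 0.1 by the same exact test), and the part of these genes in the result was not tested. The DMSO library that stood apart set part of the result for the members. Without DMSO replicate 1, 8 members were higher and 1 lower, against 19.1% and 17.3% of all genes, the median of the members was 0.13, and the one lower member was RPS26. Without tunicamycin replicate 1 or 3, RPS26 remained as the 1 member called.

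After 24 h, the median member of OCI-AML3 cells lay below DMSO and RPS26, RPL35, RPS21, RPS2 and RPL7A fell most. The median log2 fold change was −0.21, against −0.01 over all genes. By adjusted p, 24 members (31.2%) were lower, against 27.7% of all genes, and 1 (1.3%) was higher, against 23.5%. The share of lower members is near the background, and none of the 77 passed the further limit of a log2 fold change beyond 1, which 6.32% of all genes did here, 4.92% at 4 h and 2.13% in HEK293T cells. The libraries of 9 members (11.7%) did not overlap downwards, against 27.8% of all genes. The members held 11.003% ± 1.75 of a library in tunicamycin and 12.2% ± 0.915 in DMSO (SD, n = 3 each; exact permutation test, two-sided, p = 0.4). Other protein-coding genes with short transcripts held 11.1% ± 0.214 in tunicamycin and 12.2% ± 0.160 in DMSO, without overlap (p = 0.1 by the same exact test, the smallest it can give), and their part in the result was not tested. Single libraries decided how many members were called. Without tunicamycin replicate 3, 5 members (6.49%) were lower, against 20.4% of all genes, and 1 higher, against 21.3%, with a median of −0.03. Without tunicamycin replicate 2, 50 members (64.9%) were lower, against 23.9% of all genes, and 1 higher, against 26.4%, with a median of −0.34. Without tunicamycin replicate 1 or DMSO replicate 2 or 3, 13, 7 and 6 of 77 members were lower, with RPL10 higher each time. Of the 14012 genes, 3412, 3111 and 3115 were lower and 3639, 3281 and 3372 higher in these fits. With a trend on transcript length removed from each library the median was −0.11 and 14 members were lower, against 3832 of the 14012 genes.

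The 5 members with the largest falls were called under all 19 settings tried, each library left out among them, but the size of 4 falls rested in part on tunicamycin replicate 3. Without it the log2 fold changes were −0.44 for RPL35, −0.33 for RPS21, −0.32 for RPS2 and −0.30 for RPL7A. RPS26 was at 181, 202 and 224 CPM in DMSO and at 115, 134 and 82.1 CPM in tunicamycin, with every tunicamycin library below every DMSO library. Its log2 fold change was −0.88 ± 0.119 (adjusted p = 2.58e-06), a level 45.7% lower. RPL35, at the rim of the exit tunnel through which the growing peptide leaves the large subunit (chr9:124857880-124861981, minus strand), was at 1274, 1477 and 1618 CPM in DMSO and at 900, 1181 and 582 CPM in tunicamycin. Its groups did not overlap, and it fell by 0.71 on the log2 scale (SE 0.170; adjusted p = 0.00134).

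RPS21, a small subunit protein, was at 377, 391 and 505 CPM in DMSO and at 297, 362 and 171 CPM in tunicamycin, with tunicamycin replicate 2 close under the DMSO libraries. It fell by 0.62 (SE 0.165; adjusted p = 0.00351). RPS2, which lines the mRNA entry channel, was at 4919, 5118 and 5502 CPM in DMSO and at 3891, 4184 and 2822 CPM in tunicamycin. It fell by 0.51 (SE 0.117; adjusted p = 0.000973), and since its pseudogenes held 22.7% as many counts as the gene itself, its level carries that uncertainty. RPL7A was at 2056, 2401 and 2356 CPM in DMSO and at 1701, 1881 and 1313 CPM in tunicamycin. It fell by 0.48 (SE 0.105; adjusted p = 0.000683). RPS15 and RPL8 were also lower without overlap, at log2 fold changes of −0.46 and −0.34.

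RPL10, a large subunit protein near the peptidyl transferase centre that is added late in assembly (chrX:154389955-154409168, plus strand), was the 1 member that was higher. It was at 2103, 2311 and 2352 CPM in DMSO and at 2870, 3177 and 2282 CPM in tunicamycin. Tunicamycin replicate 3, the library in which all members were low, lay among the DMSO libraries. The log2 fold change was 0.30 ± 0.0978 (adjusted p = 0.0138), and the call was lost in 1 of 19 settings, with the groups compared alone (adjusted p = 0.0591).

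In HEK293T cells at 24 h most members lay above DMSO, RPL28, RPL10 and RPLP0 furthest: 73 of 77 members (94.8%) had a log2 fold change above 0, against 47.1% of all genes. The median was 0.19, against −0.01 over all genes, and the interquartile range of the members was 0.104 log2 units. All 3 tunicamycin libraries lay above all 3 DMSO libraries for 67 members (87.0%), against 23.4% of all genes, and below them for 3 (3.9%), against 25.7%. The members held 8.63% ± 0.0353 of a library in tunicamycin and 7.66% ± 0.113 in DMSO, and the groups did not overlap (exact permutation test, two-sided, p = 0.1, the smallest 3 against 3 can give). Other genes with short transcripts went the other way, with 11.1% ± 0.0243 in tunicamycin and 11.6% ± 0.0973 in DMSO, also without overlap. By adjusted p in the fit that shares 1 estimate of spread over all 7 groups, 7 members (9.09%) were higher, against 12.6% of all genes, and none lower, against 13.1%. With only the HEK293T libraries in the fit, 68 members were higher, against 20.9% of all genes, and 3 lower, against 20.4%. Leaving out any one HEK293T library left 3 members called, RPL28, RPL10 and RPLP0, with medians of 0.19 to 0.20.

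RPL28, a large subunit protein, was at 323, 316 and 267 CPM in DMSO and at 433, 457 and 381 CPM in tunicamycin, without overlap. Its log2 fold change was 0.49 ± 0.114 (adjusted p = 0.00277). RPL10 was at 1530, 1531 and 1516 CPM in DMSO and at 2129, 2131 and 2078 CPM in tunicamycin, a log2 fold change of 0.47 ± 0.0979 (adjusted p = 0.00101). RPLP0, the base of the P stalk that recruits translation factors to the large subunit, was at 1477, 1446 and 1462 CPM in DMSO and at 1972, 2011 and 1989 CPM in tunicamycin. It rose by 0.45 (SE 0.120; adjusted p = 0.00839). RPS12 and RPL37 rose by 0.40 (adjusted p = 0.0332) and 0.35 (adjusted p = 0.0497), and were called under 13 and 10 of 19 settings. RPS6, the small subunit protein phosphorylated downstream of mTOR, and RPL7 were also higher, by 0.29 (adjusted p = 0.042, called under 13 of 19 settings) and 0.21 (adjusted p = 0.0442). RPS26, RPL35 and RPS9 were the 3 members whose tunicamycin libraries lay below all DMSO libraries. RPS26 was at 191, 190 and 193 CPM in DMSO and at 163, 157 and 160 CPM in tunicamycin, with a fold change of −0.26 on the log2 scale (adjusted p = 0.109 in the shared fit).

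**Figure D2:**
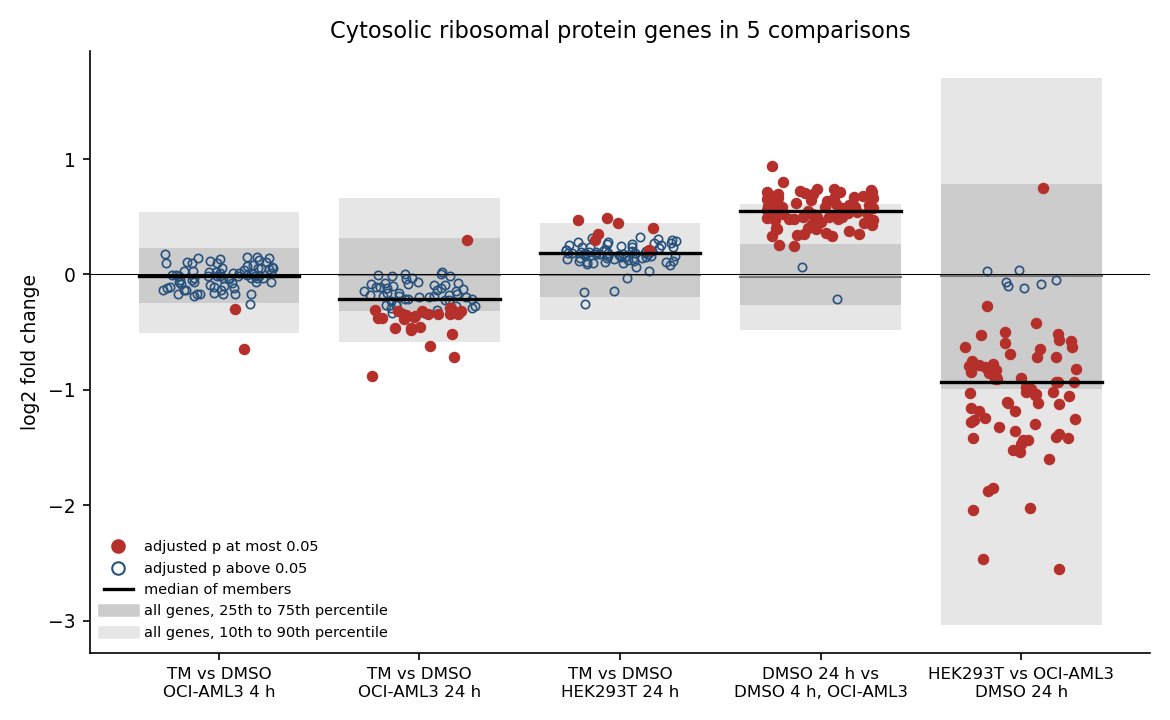
Log2 fold change of each of the 77 members (points) in 5 comparisons, with filled points at an adjusted p of at most 0.05 by edgeR; black lines mark the median of the members, and grey boxes the 25th to 75th and 10th to 90th percentiles of all 14012 genes tested. The members' medians are −0.01 (4 h) and −0.21 (24 h) with tunicamycin in OCI-AML3 cells, 0.19 in HEK293T cells, 0.55 between the DMSO groups and −0.93 between the lines, and in each the members span less than the genes as a whole.

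Interaction terms tested whether tunicamycin acted unequally in the lines or at the times, on libraries that the comparisons above also use. At 24 h the fold change was more positive in HEK293T cells for all 77 members, against 52.2% of all genes, with a median difference of 0.41 against 0.02. The difference passed the test for 32 members (41.6%), against 15.9% of all genes, and for none in the other direction, against 10.9%. The largest differences were in RPS2 (0.81 ± 0.166, adjusted p = 0.00103), RPS21 (0.78 ± 0.235, adjusted p = 0.0168) and RPS29 (0.72 ± 0.269, adjusted p = 0.0499). RPS2 was called under all 25 settings, RPS21 under 23 and RPS29 under 5, and without OCI-AML3 tunicamycin replicate 3 their differences were 0.61, 0.49 and 0.44. The count ran from 7 to 60 members over the 12 libraries left out in turn: 60 without OCI-AML3 tunicamycin replicate 2, 8 without its replicate 3, 7 without DMSO replicate 3 of either line, 14 without OCI-AML3 DMSO replicate 2, 17 without OCI-AML3 tunicamycin replicate 1, 25 without OCI-AML3 DMSO replicate 1, and 13 to 18 without any other HEK293T library. The direction was positive at the median throughout, from 0.22 to 0.54.

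Over time in OCI-AML3 cells the effect differed for 4 members (5.19%), all more negative at 24 h, against 20.3% of all genes in that direction and 15.1% in the other. Among them were RPS21 (−0.64, adjusted p = 0.0374), RPS2 (−0.63, adjusted p = 0.00502) and RPS28 (−0.48, adjusted p = 0.0482). RPS2 was called under all 25 settings and RPS21 under 14, and RPS21 was at −0.36 without tunicamycin replicate 3 at 24 h. The number ran up to 29 without tunicamycin replicate 2 at 24 h and 26 without DMSO replicate 1 at 4 h, libraries in which the family was high, and down to 1 without others. RPS26 was lower at both times, by 0.65 and 0.88 on the log2 scale, and its time term was not called.

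Since the family moved as a block from library to library, each library was also scaled so that its median member kept 1 level, and the test was repeated on that scale. Values below on this scale say how a gene moved against the other ribosomal protein genes. By this measure 2 members changed in the same direction in all 3 tunicamycin comparisons, which have separate controls: RPS26 lower and RPL10 higher. The numbers of members past the test were 4 above and 2 below the family in OCI-AML3 cells at 4 h (5.19% and 2.6%, against 10.9% and 8.24% of all genes on this scale), 11 and 7 at 24 h (14.3% and 9.09%, against 30.6% and 8.51%), and 3 and 4 in HEK293T cells (3.9% and 5.19%, against 3.54% and 17.3%). The scale centres the members, so these shares of all genes also carry the family's own shift against other genes. With a library left out in turn, the totals of 6, 18 and 7 members became 2 to 5, 11 to 27 and 4 to 5. Most members kept step: 75, 69 and 71 of 77 lay within 0.25 log2 units of the family in the 3 comparisons.

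RPS26 stood at −2.12, −2.11 and −2.02 log2 units against the median member in DMSO at 4 h, and at −2.65, −2.79 and −2.72 in tunicamycin. At 24 h it stood at −2.88, −2.85 and −2.81 in DMSO and at −3.45, −3.42 and −3.53 in tunicamycin. In HEK293T cells it stood at −1.92, −1.92 and −1.89 in DMSO and at −2.29, −2.36 and −2.34 in tunicamycin. The groups were apart in each case, with differences of −0.61 ± 0.0764 (adjusted p = 5.68e-06), −0.64 ± 0.0768 (adjusted p = 2.15e-06) and −0.45 ± 0.0762 (adjusted p = 0.000312). All 3 held with each library left out in turn, and the difference between the lines was not called (0.19, adjusted p = 0.181).

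RPL10 stood at 0.57, 0.57 and 0.64 in DMSO at 4 h against 0.76, 0.69 and 0.76 in tunicamycin, and at 0.66, 0.67 and 0.58 in DMSO at 24 h against 1.19, 1.15 and 1.27 in tunicamycin. In HEK293T cells it stood at 1.09 in all 3 DMSO libraries, and at 1.42, 1.40 and 1.36 in tunicamycin. The tunicamycin libraries were above the DMSO libraries throughout. The differences were 0.18 (adjusted p = 0.0372) at 4 h, 0.55 (adjusted p = 4.87e-07) at 24 h and 0.28 (adjusted p = 0.00204) in HEK293T cells. At 4 h the call was lost with any 1 of the 6 libraries left out, while the other 2 held each time. The rise relative to the family was larger at 24 h than at 4 h in OCI-AML3 cells (difference 0.37, adjusted p = 0.00452) and larger in OCI-AML3 than in HEK293T cells (−0.27, adjusted p = 0.0232).

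3 further members changed in the same direction in 2 comparisons. RPL35 was below the family by 0.50 in OCI-AML3 cells at 24 h (adjusted p = 0.000585) and by 0.34 in HEK293T cells (adjusted p = 0.0187, held in 3 of 6 repeats with a library left out). RPL7A was below it in OCI-AML3 cells at 4 h (−0.26, adjusted p = 0.00446) and 24 h (−0.23, adjusted p = 0.00599), in every repeat. RPS12, a small subunit protein, was above it in OCI-AML3 cells at 24 h (0.25, adjusted p = 0.00568) and in HEK293T cells (0.21, adjusted p = 0.0304, in none of 6 repeats). RPS9, a small subunit protein near the mRNA entry, was called in opposite directions: above the family in OCI-AML3 cells at 4 h (0.23, adjusted p = 0.024, held in 3 of 6 repeats) and below it in HEK293T cells (−0.34, adjusted p = 0.00168, in every repeat). The remaining members called moved in 1 comparison each. In OCI-AML3 cells at 24 h RPL5, RPS2 and RPS21 also held in every repeat, at 0.28, −0.27 and −0.40, and RPS21 ranged from −0.48 to −0.25 over them. In HEK293T cells RPLP0 (0.25) held in every repeat. The interaction at 24 h placed RPLP0 and RPS9 apart from OCI-AML3 cells (0.20, adjusted p = 0.0499, and −0.30, adjusted p = 0.0305).

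**Figure D3:**
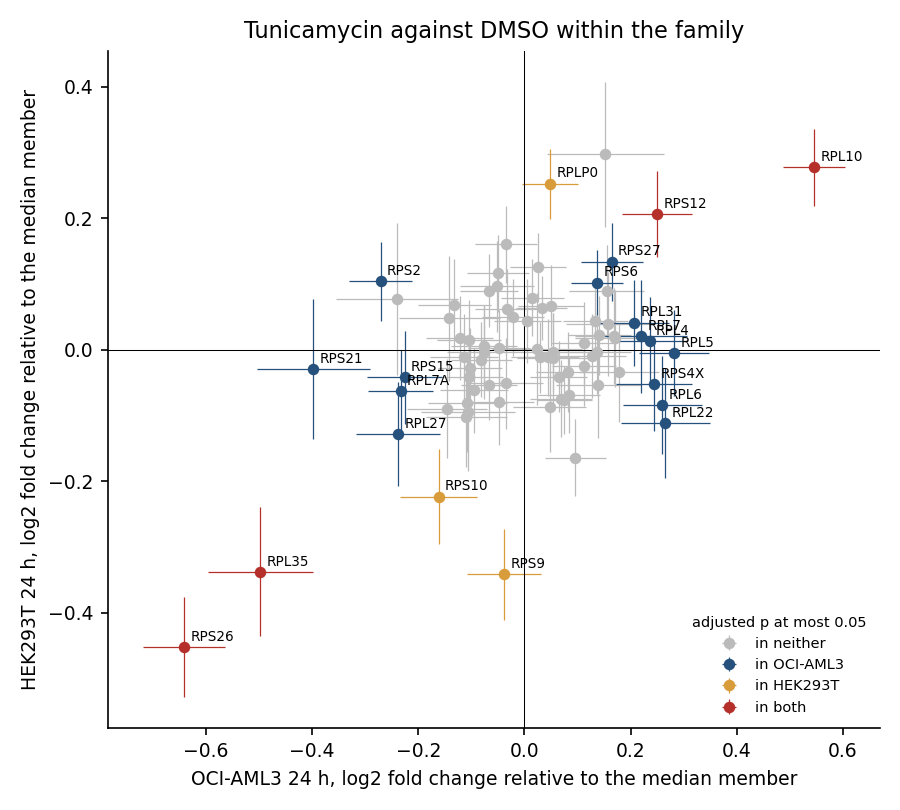
Log2 fold change of tunicamycin against DMSO at 24 h after each library was scaled to its median member, in OCI-AML3 cells (horizontal) and HEK293T cells (vertical), with 1 point per member and bars of 1 standard error; colours show in which line the adjusted p was at most 0.05 and called members are named. RPS26 (−0.64 and −0.45) and RPL35 (−0.50 and −0.34) lie low in both lines, RPL10 (0.55 and 0.28) and RPS12 (0.25 and 0.21) high in both, and most other members lie within 0.25 of 0.

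**Figure D4:**
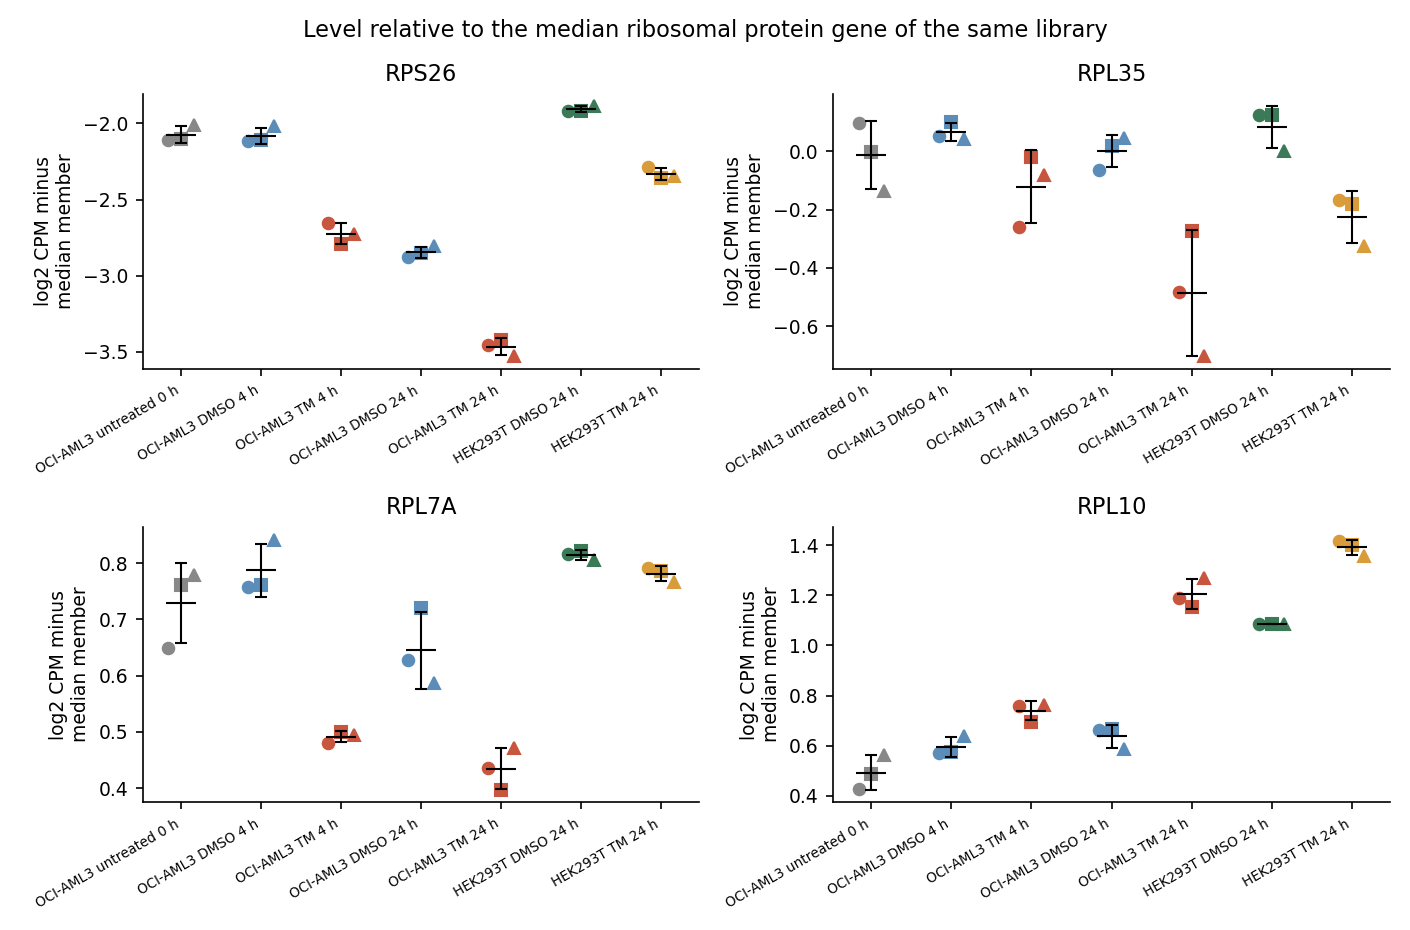
Level of RPS26, RPL35, RPL7A and RPL10 in each of 21 libraries, as log2 CPM minus the median member of the same library; points are libraries, with shapes for replicates 1 to 3, and bars the mean with SD of 3. RPS26 steps down with tunicamycin in each of the 3 pairs and RPL10 steps up, and RPS26 was also lower in DMSO at 24 h (−2.88 to −2.81) than in DMSO at 4 h (−2.12 to −2.02).

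By position in the ribosome, the small subunit had the larger part of the lower calls in OCI-AML3 cells at 24 h: 14 of 31 small subunit members (45.2%) and 10 of 46 large subunit members (21.7%) were lower, against 27.7% of all genes, with medians of −0.27 and −0.19. Without tunicamycin replicate 3, 3 small subunit members (RPS2, RPS21 and RPS26) and 2 large subunit members (RPL7A and RPL35) were lower, against 20.4% of all genes, and without replicate 2 the numbers were 25 and 25. In the interaction with cell line, 18 of 31 small subunit members (58.1%) and 14 of 46 large subunit members (30.4%) were called, against 15.9% of all genes, with medians of 0.49 and 0.38. With a library left out in turn these counts ran from 3 to 28 and from 4 to 32. The difference between the subunits was not tested. Of 6 proteins of the mRNA entry and exit channel of the small subunit, RPS2, RPS3, RPS26, RPS28 and RPSA were lower at 24 h, with a list median of −0.36, and RPS2 and RPS26 alone without tunicamycin replicate 3. RPS14, the sixth, whose loss in marrow cells is known from the 5q- syndrome, was at −0.27 (adjusted p = 0.106). Of 7 proteins at the peptide exit tunnel 1, RPL35, was lower, with a list median of −0.10.

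The P stalk proteins RPLP0, RPLP1 and RPLP2 were at 0.10, 0.15 and 0.02 after 4 h and at −0.20, −0.07 and −0.22 after 24 h in OCI-AML3 cells, none of them called in the fit over all 7 groups. Without DMSO replicate 1 at 4 h, RPLP0 and RPLP1 were called at that time, at 0.32 (adjusted p = 0.0118) and 0.42 (adjusted p = 0.0174). At 24 h RPLP0 and RPLP2 were each called lower under 1 of 19 settings. Over the settings they reached −0.28 and −0.35. In HEK293T cells RPLP1 and RPLP2 were at 0.28 (adjusted p = 0.199) and 0.19 (adjusted p = 0.372) beside the called RPLP0. RPL5, RPL11 and RPL23, which bind MDM2, were not called in that fit in any tunicamycin comparison. RPL23 was called under 1 of 19 settings at 4 h and 2 at 24 h, at −0.36 without tunicamycin replicate 2. With only the HEK293T libraries in the fit, RPL5, RPL11, RPL23, RPLP1 and RPLP2 were all higher there. In the fit over all 7 groups, RPL5, RPL11 and RPL23 were at 0.06, −0.06 and −0.17 at 4 h. They were at 0.02, −0.13 and −0.19 at 24 h, and at 0.19, 0.18 and 0.11 in HEK293T cells. RPS27A, which is made as a fusion with ubiquitin, was at −0.06, −0.16 and 0.12, and RPL41, the smallest member, at −0.12, −0.23 and 0.27, with no call in the fit over all groups.

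Of 14 genes mutated in Diamond-Blackfan anaemia, a failure of red cell production from too few ribosomes, 7 (50.0%) were lower in OCI-AML3 cells at 24 h, against 27.7% of all genes and 31.2% of the family, with a median of −0.34. Without tunicamycin replicate 3, 1 of the 14, RPS26, was lower, against 20.4% of all genes. RPS19, the gene most often mutated in that disease, was at 1330, 1494 and 1569 CPM in DMSO and at 1177, 1423 and 857 CPM in tunicamycin. It fell by 0.35 (adjusted p = 0.0317), with overlap, and was called under 9 of 19 settings. 1 of the 14 genes (7.14%), RPS26, was lower at 4 h, against 18.9% of all genes. In HEK293T cells none was called in the fit over all 7 groups, against 12.6% of all genes higher and 13.1% lower. There 12 of the 14 had a log2 fold change above 0, against 47.1% of all genes.

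Members with and without the motif at an annotated start are set side by side here, with no test of the difference. The 46 members with a TOP start had a median of −0.22 in OCI-AML3 cells at 24 h and 0.19 in HEK293T cells, and the 16 with listed starts but no TOP start −0.25 and 0.16. The 28 members with a small nucleolar RNA inside the gene had medians of −0.22 and 0.20, and the other 49 of −0.21 and 0.18. Among 13 other genes known for TOP mRNAs, mostly translation factors, 6 (46.2%) were higher in HEK293T cells, against 12.6% of all genes, with a median of 0.22, and none was lower. They were EEF1A1 (0.31), EEF2 (0.34), PABPC1 (0.34), TPT1 (0.49), EIF3F (0.43) and NAP1L1 (0.34). In OCI-AML3 cells at 24 h, TPT1 (0.36) and NAP1L1 (0.45) were higher and EEF1G (−0.26) and HNRNPA1 (−0.22) lower, with a median of −0.03. Of the 13, 15.4% were thus higher, against 23.5% of all genes, and 15.4% lower, against 27.7%. Together the 13 held 3.62% ± 0.127 (SD, n = 3) of a library in tunicamycin and 3.37% ± 0.00463 in DMSO at 24 h. These groups did not overlap (exact permutation test, two-sided, p = 0.1, the smallest possible). At 4 h EEF2, the elongation factor that moves the ribosome along the mRNA, was higher (0.44) and HNRNPA1 lower (−0.19). These are 7.69% of the 13 in each direction, against 18.5% and 18.9% of all genes. LARP1, the TOP-binding protein, was not called (−0.20, −0.13 and 0.14 in the 3 comparisons). Of 5 TOP-binding proteins, SSB (La) was lower at 24 h in both lines (−0.38 and −0.32), TIA1 was higher at 24 h in OCI-AML3 cells (0.35, adjusted p = 0.0195), and no other was called.

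Some ribosomal protein genes fall outside the symbol rule. Of 3 such genes, 2 (66.7%) were lower in OCI-AML3 cells at 24 h, against 27.7% of all genes. FAU, which encodes a small subunit protein fused to a ubiquitin-like one, fell by 0.43 (adjusted p = 0.0145). The other lower gene, not named here, was at −0.47. RACK1, on the head of the small subunit, was at 0.15 (adjusted p = 0.17).

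Among the paralogs, close copies that can take a member's place, RPL22L1 was higher at 24 h in both lines and RPS27L lower in OCI-AML3 cells. RPL22 and RPS27 were not called in the fit over all 7 groups. Against the median member, both were called higher in OCI-AML3 cells at 24 h. RPL22 was above the family by 0.27 (adjusted p = 0.0172, held in 4 of 6 repeats with a library left out). RPS27 was above it by 0.16 (adjusted p = 0.0324, in 2 of 6). The values that follow are not on that scale. RPL22L1 was at 55.1, 52.6 and 64.8 CPM in HEK293T cells in DMSO and at 85.1, 85.8 and 92.6 CPM in tunicamycin, while RPL22 was at 419, 441 and 457 CPM and at 459, 446 and 490 CPM. The paralog rose by 0.61 (adjusted p = 0.00273) without overlap, and RPL22 was at 0.08 (adjusted p = 0.591). In OCI-AML3 cells at 24 h RPL22L1 rose by 0.40 (adjusted p = 0.0262), with overlap and in 17 of 19 settings, and RPL22 was at a log2 fold change of 0 to 2 decimals. RPS27L, a target of p53 as well as a copy of RPS27, was at 125, 92.6 and 104 CPM in OCI-AML3 cells in DMSO at 4 h and at 70.5, 80.8 and 80.6 CPM in tunicamycin. At 24 h it was at 91.5, 98.7 and 109 CPM in DMSO and at 61.7, 77.9 and 62.8 CPM in tunicamycin. It fell by 0.47 (adjusted p = 0.0012) and 0.57 (adjusted p = 0.00015) without overlap, and RPS27 was at −0.03 and −0.07. In HEK293T cells RPS27L was at −0.10 (adjusted p = 0.574) and RPS27 at 0.33 (adjusted p = 0.0801). RPL26L1 and RPL39L fell by 0.89 and 0.75 in OCI-AML3 cells at 24 h. RPL36AL fell by 0.55 at 4 h and 0.33 at 24 h in OCI-AML3 cells and rose by 0.20 in HEK293T cells. RPL10L and RPL3L did not pass the filter, with at most 0 and 10 counts in a library.

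Of 78 mitochondrial ribosomal protein genes, 64 (82.1%) were lower and none higher in OCI-AML3 cells at 24 h, with a median of −0.45, against 27.7% lower over all genes and 31.2% and −0.21 for the cytosolic family. MRPL12 was the lowest, at −1.10. Their share of a library was 0.376% ± 0.0324 in tunicamycin and 0.507% ± 0.0285 in DMSO, without overlap. In HEK293T cells 17 (21.8%) were lower, against 13.1% of all genes, and none higher, with a median of −0.15, where the cytosolic median was 0.19. The listed chaperones of ribosomal proteins were also lower in OCI-AML3 cells at 24 h, 8 of 9 with a median of −0.42, against 27.7% of all genes. They were lower for 4 of 9 in HEK293T cells, against 13.1% of all genes, and for 4 of 9 at 4 h, against 18.9%. TSR2, the escort of RPS26 and named for that after the values of RPS26 were seen, fell by 0.25 (adjusted p = 0.0131) in OCI-AML3 cells at 24 h and by 0.32 (adjusted p = 0.00385) in HEK293T cells, and was at −0.16 (adjusted p = 0.119) at 4 h. RRS1, which takes RPL5 and RPL11 into the assembling large subunit, fell by 0.78 at 4 h.

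The comparisons without the drug share their DMSO libraries with those above, so they are given by their own values alone. Between DMSO for 4 h and untreated cells, no difference passed the test: none of the 14012 genes was called (0.0%), at an unadjusted p under 0.05 there were 0 members and 1160 genes, and limma voom and DESeq2 called 0 and 19 genes and no member. Between 4 h and 24 h of DMSO in OCI-AML3 cells, 75 members (97.4%) were higher, against 21% of all genes, and none lower, against 21.6%. The median was 0.55, against −0.02. The members held 12.2% ± 0.915 of a library at 24 h and 9.04% ± 1.21 at 4 h, without overlap (exact permutation test, two-sided, p = 0.1, the smallest possible). RPS29, RPS21 and RPS15A rose most, by 0.94, 0.80 and 0.74 (adjusted p = 0.000424, 0.000557 and 8.05e-05). RPL6 (0.07, adjusted p = 0.538) and RPS26 (−0.21, adjusted p = 0.145) were the 2 not called. Against the median member RPS26 fell by 0.78 over this interval (adjusted p = 3.48e-07). The count was 62 to 75 with any library left out. Other TOP genes took 3.37% ± 0.00463 of the library at 24 h and 2.75% ± 0.173 at 4 h, and the mitochondrial ribosomal protein genes 0.507% and 0.549%, with overlap.

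Between the lines in DMSO at 24 h, 69 members (89.6%) were lower in HEK293T cells, against 42.2% of all genes, and 1, RPS4X, was higher, against 40.5%. The median was −0.93, against −0.01, and 36 members (46.8%) were lower by more than 1 log2 unit, against 24.9%. Here the members also parted from each other, with an interquartile range of 0.582 log2 units and 32 within 0.25 of the family. RPL37, a zinc-binding large subunit protein, was at 3002, 3099 and 3878 CPM in OCI-AML3 cells and at 570, 560 and 568 CPM in HEK293T cells, 83.0% lower (log2 fold change −2.56 ± 0.137, adjusted p = 4.3e-14). RPS20, a protein of the small subunit head, was at 2446, 2614 and 2973 CPM and at 497, 487 and 468 CPM (−2.47), and RPL28 at 1199, 1231 and 1305 CPM and at 323, 316 and 267 CPM (−2.04). RPS4X, the X-linked copy of RPS4, was at 1260, 1269 and 1397 CPM in OCI-AML3 cells and at 2239, 2152 and 2215 CPM in HEK293T cells, a 1.68-fold higher level (adjusted p = 1.24e-08). With library sizes in place of TMM factors, which moved the median of all genes by 0.34, 63 members were lower and 8 higher, the median of the members was −0.59, and 17 were lower by more than 1 log2 unit.

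**Figure D5:**
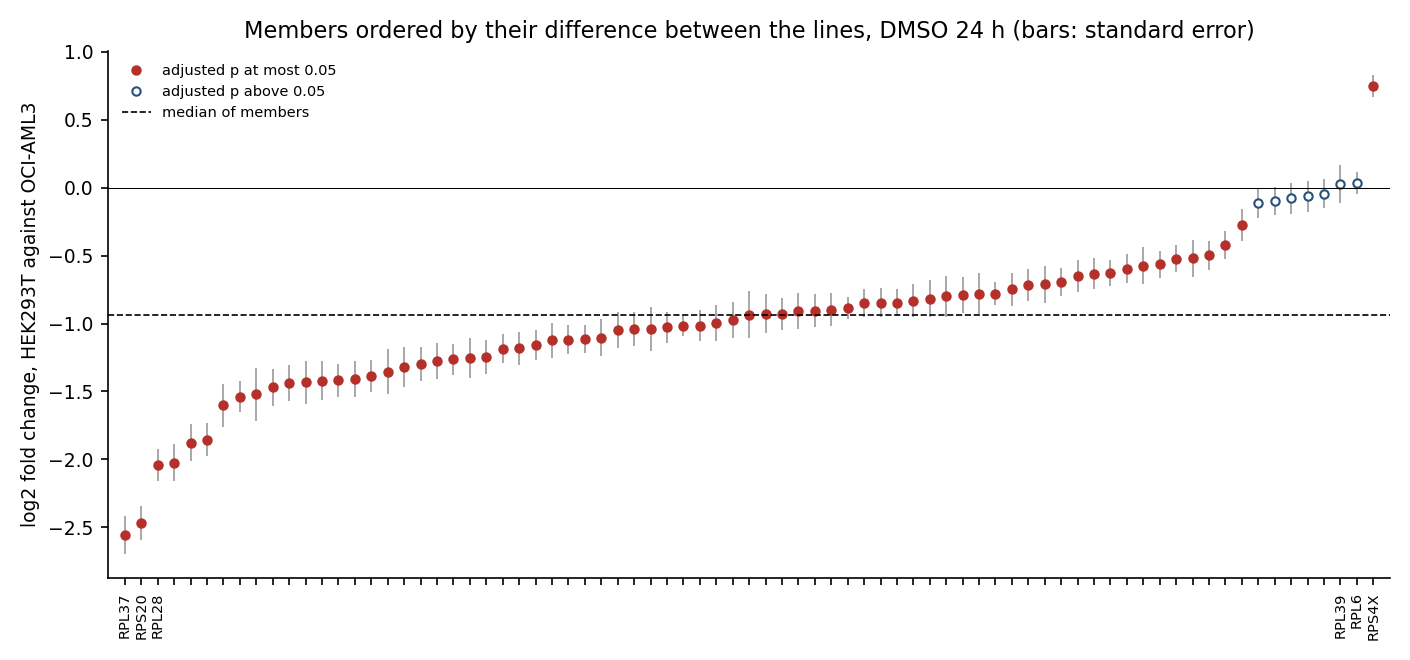
Log2 fold change of each member in HEK293T against OCI-AML3 cells in DMSO at 24 h, in rising order, with bars of 1 standard error; the 3 lowest and 3 highest are named, filled points have an adjusted p of at most 0.05 by edgeR and the dashed line is the median of the members, −0.93. RPL37 and RPS20 lie lowest, at −2.56 and −2.47, and RPS4X, at 0.75, is the 1 member called higher.

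Levels between members were compared per length, as counts per coding base scaled to the same total over all genes in each library. On that scale RPL41 was the highest member in all 7 groups, at 14554 ± 854 (SD, n = 3) in OCI-AML3 cells and 10880 ± 330 in HEK293T cells in DMSO at 24 h, and RPS26 the lowest in all 7, at 472 ± 31.7 and 622 ± 5.07. The second highest in OCI-AML3 cells in DMSO at 24 h was RPL37, at 9184 ± 919, and in HEK293T cells it was RPS2, at 4213 ± 248, and both were apart from RPL41 by more than their spread. The highest member was 30.9-fold above the lowest in OCI-AML3 cells and 17.5-fold in HEK293T cells, while the 90th percentile of the members was 3.30-fold and 2.73-fold above the 10th. In tunicamycin at 24 h the gap was 48.5-fold and 25.3-fold, with RPS26 at 283 ± 43.9 and 503 ± 10.9 and RPL41 at 13745 ± 1765 and 12728 ± 479. The ends of this order depended on the length used. Per base of merged exons or of the longest coding transcript, RPS2 or RPS27 came highest and RPS29 lowest in every group.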

How the data were processed

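Poly-A RNA-seq libraries of OCI-AML3 and HEK293T cells were analysed from the gene-level table deposited by the authors. It holds expected counts, which the authors made with STAR and RSEM against GRCh38 and Ensembl 101 genes. Expected counts need not be whole (3.54 to 4.22% of the values were not) and were rounded. Genes with at least 1 CPM in 8 libraries were tested in edgeR 4.0.16 (R 4.3.3) with TMM scaling and a quasi-likelihood fit of 7 group means. All adjusted p-values are from edgeR's quasi-likelihood test with Benjamini-Hochberg adjustment over all genes tested, called at 0.05 or less, and each SE was taken from the fold change and its F statistic (log2 value over the root of F). Scripts were tested on simulated data. Shares of a library were compared by exact permutation tests. No source says that replicates are separate cultures, so p-values measure the spread between these samples, which may be technical. Counting error is small beside it, at 13838500 to 19961800 counts a library.

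The members and gene lists were chosen with earlier results of these data known. Named genes were the 5 largest rises and falls per tunicamycin comparison among called members whose libraries do not overlap, the 3 largest per interaction and control comparison, the extremes per length, and fixed genes of known roles. A few genes are not reported here by name. RPL10 in OCI-AML3 cells, genes called against the median member and those set beside them were named after their values were seen. Alternatives were limma voom 3.58.1, DESeq2 1.42.0, other scalings and filters, the compared groups alone, a replicate block, added pseudogene counts, removal of a length trend, and each library left out. Scaling to the median member and the length trend of the other genes were chosen after seeing the data. Genes were annotated with GENCODE 44, and start sequences are from RefSeq.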

Additional observations from a re-analysis of the deposited data

Results flagged for a closer look

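The effect of tunicamycin differed between groups by the interaction term in edgeR, and this is what singled out the results here. In OCI-AML3 cells it differed for 4 members between the times (5.19%, all more negative at 24 h, against 20.3% of all genes in that direction), and for 1 to 29 with a library left out. The difference in log2 fold change was −0.64 for RPS21 and −0.63 for RPS2, each more negative at 24 h, with RPS21 called under 14 of 25 settings and RPS2 under all. Between HEK293T and OCI-AML3 cells at 24 h it differed for 32 members (41.6%, all more positive in HEK293T cells, against 15.9% of all genes in that direction), and for 7 to 60 with a library left out. The difference was 0.81 for RPS2 and 0.78 for RPS21, each more positive in HEK293T cells. The cause was not tested, and line, medium and culture cannot be told apart.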

How the results depend on the processing

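The number of members called was the least stable value, and with a library left out the balance of calls turned in 1 comparison. In OCI-AML3 cells at 4 h, 0 members were higher and 2 lower, but 8 higher and 1 lower without DMSO replicate 1, where the median moved from −0.01 to 0.13. At 24 h, 1 was higher and 24 lower. Scaling to the median member, which puts members on both sides by construction, turned the balance more widely. It gave 11 higher and 7 lower at 24 h, 4 and 2 at 4 h, and 3 and 4 in HEK293T cells. The numbers were 8 and 15 between the DMSO times, 32 and 29 between the lines, and 2 and 7 for the line term. That scaling turned the direction of 37 of 75 members called between the DMSO times, 32 of 70 called between the lines and 1 of 32 called for the line term, and library sizes alone turned 1 of the 70. No other setting turned a called member. In OCI-AML3 cells at 4 h the number called (2 members) was 6 with no filter on low counts, 1 with the groups compared alone and 6 after scaling to the median member, and 1 to 9 with a library left out. At 24 h (25 members) it was 16 with DESeq2 size factors, 14 with TMM without the members, 49 with no filter, 14 with 1 CPM in 3 libraries, 7 with the groups compared alone, 15 with either length trend removed, and 6 to 51 with a library left out. In HEK293T cells (7 members) it was 11 with DESeq2, 11 with library sizes alone, 24 with no filter, 71 with the groups compared alone, 15 with either length trend removed, and 3 with any library left out. Between the DMSO times it was 23 after scaling to the median member. For the time term (4 members) it was 7 with limma voom, 2 with DESeq2, with its size factors and with library sizes alone, 1 with TMM without the members, with 1 CPM in 3 libraries and with the groups compared alone, 24 with no filter, and 1 to 29 with a library left out. For the line term (32 members) it was 19 with DESeq2 size factors, library sizes alone and TMM without the members, 59 with no filter, 17 with 1 CPM in 3 libraries, 9 after scaling to the median member, and 7 to 60 with a library left out. The rise of the members' share in HEK293T cells was 1.06 percentage points over nuclear genes past the filter. The cause was not tested for these changes.

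With the replicate number as a block, 2 members were lower at 4 h (2.6%, against 19.6% of all genes), 26 lower (33.8% against 28.1%) and 1 higher (1.3% against 23.6%) at 24 h, 27 in all, and 9 higher in HEK293T cells (11.7% against 13.2%). The time term was negative and called for 8 (10.4% against 21.2%) and the line term positive and called for 35 (45.5% against 17%). Same-numbered libraries correlated by 0.11, −0.032 and 0.16 at 4 h and by 0.0064, −0.087 and −0.17 at 24 h. In HEK293T cells the values were 0.056, 0.079 and 0.18. They rest on deviations from means of 3 libraries, which are tied to each other. Whether the numbers pair the libraries therefore cannot be decided from them. Depth limits little here, since every member held at least 1508 counts in each library, whereas 3 replicates and the shared movement of the family do.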
